A study of Sus scrofa with 180 samples.

Results

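Titin and nebulin, the giant proteins of the muscle sarcomere, were measured by 7 probes of a pig muscle microarray, 4 for TTN and 3 for NEB. They are 2 of the 3481 genes with a named probe, and the array held 15198 probes. The members were every probe to which the study's lists of probes, as used here, give the symbol TTN or NEB, and all 7 were among the 10987 probes kept for the comparison of muscles. Those lists served only to name probes, and of the list of probes higher in SM only the first part was used here, so further TTN or NEB probes on that list would not be counted. They hold probes already found to differ between the muscles, and all 7 members come from the list of probes higher in LM, so the direction of the muscle difference of each member is a description and not independent evidence.

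The samples were the Longissimus lumborum (LM) and Semimembranosus (SM) muscles of the same 90 pigs, with 1 single-colour array for each muscle of each pig (180 arrays). The pigs were females and barrows (castrated males) from the second generation of an intercross between a Pietrain-type sire line, F016, and FH019, a synthetic line founded from Hampshire, Duroc and Large-White pigs. No pig was treated, and the muscle was the only factor compared. The muscle was sampled near its surface shortly after slaughter, and the RNA is that of whole tissue, so a lower share of one cell type and less RNA in each cell cannot be told apart.

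Titin is the elastic filament that runs from the Z-disc, where the thin filaments are anchored, to the M-band, where the thick filaments are held together. It sets passive tension, keeps the thick filaments centred and carries binding sites for signalling proteins. Nebulin lies along the thin filament of skeletal muscle, is anchored at the Z-disc and takes part in setting the length of the thin filament. Transcripts of both genes are very long and are spliced in many forms, so a probe reads only those forms that hold its short target.

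The probe sequences are printed to show that the 7 probes read separate stretches of transcript. Each is 60 bases long and is given 5′ to 3′ as the scanner's output holds it, with the first 15 bases in capitals, the window in which C bases were counted.
TTN A (probe BX669795.1_940): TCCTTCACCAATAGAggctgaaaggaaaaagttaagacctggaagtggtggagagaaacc
TTN B (probe BX920656.1_573): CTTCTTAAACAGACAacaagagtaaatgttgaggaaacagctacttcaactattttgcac
TTN C (probe CF179400.1_1004): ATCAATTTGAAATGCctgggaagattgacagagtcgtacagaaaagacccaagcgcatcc
TTN D (probe CF359670.1_1954): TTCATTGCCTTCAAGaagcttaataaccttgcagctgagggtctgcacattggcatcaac
NEB A (probe BP160020.1_718): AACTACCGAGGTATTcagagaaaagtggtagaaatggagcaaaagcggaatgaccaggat
NEB B (probe CB826591.1_450): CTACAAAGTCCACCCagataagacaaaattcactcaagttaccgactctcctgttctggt
NEB C (probe CF788341.1_1141): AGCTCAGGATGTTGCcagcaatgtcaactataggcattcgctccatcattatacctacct

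Over the 21 pairs of probes, the longest run of bases shared on either strand was 8, so no probe overlapped another. The GC content was 35% in TTN B, 43.3% in NEB A and NEB B and 45% in the other 4 probes, against a median of 43.3% over the probes kept. The first 15 bases of NEB B held 7 C, the highest count of the 7, and those of TTN C held 2, the lowest. The exon read by each probe was not determined here.

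Every spot of the 7 probes was well above background, uniform and unsaturated on all 180 arrays, and no value was removed as outlying. Values are log2 processed signal minus the median of the array, so that 1 unit is a doubling and a negative value lies below the median of the array. They compare arrays for 1 probe and not 1 probe with another, since probes differ in brightness for the same amount of RNA. The median processed signal of an array ranged from 171 to 304 in LM and from 105 to 252 in SM. The share of all probes well above background ranged from 69.2% to 99.9% in LM and from 63.4% to 83.3% in SM. LM was hybridised on 21 slides (10 scan days) and SM on 14 different slides (5 different scan days), so slide or scan day and muscle cannot be told apart.

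All 4 TTN probes were higher in LM than in SM. TTN A ranged from 1.08 to 2.18 in LM with a median of 1.79, and from -0.20 to 1.65 in SM with a median of 0.33. TTN B ranged from 4.14 to 5.28 in LM with a median of 4.75, and from 2.56 to 4.84 in SM with a median of 3.60. The ranges of the muscles overlapped for both probes, although 67 LM arrays for TTN A and 28 for TTN B lay above every SM array. TTN C ranged from 2.28 to 3.52 in LM with a median of 2.85, and from 0.60 to 2.85 in SM with a median of 1.47. TTN D ranged from -0.30 to 1.09 in LM with a median of 0.54, and from -1.47 to 0.41 in SM with a median of -0.70. For TTN C, 86 SM arrays lay below every LM array, and for TTN D, 77 did. For each TTN probe the highest SM arrays lay within the range of LM.

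The 3 NEB probes were also higher in LM, by a smaller amount. NEB A ranged from 5.09 to 6.34 in LM with a median of 5.77, and from 4.10 to 5.53 in SM with a median of 5.02. NEB B ranged from 4.55 to 5.65 in LM with a median of 5.14, and from 3.80 to 5.19 in SM with a median of 4.52. NEB C ranged from 1.18 to 2.44 in LM with a median of 1.93, and from 0.36 to 1.81 in SM with a median of 1.11. The muscles overlapped for each NEB probe, and 76, 35 and 64 LM arrays lay above every SM array for NEB A, NEB B and NEB C.

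**Figure D1:**
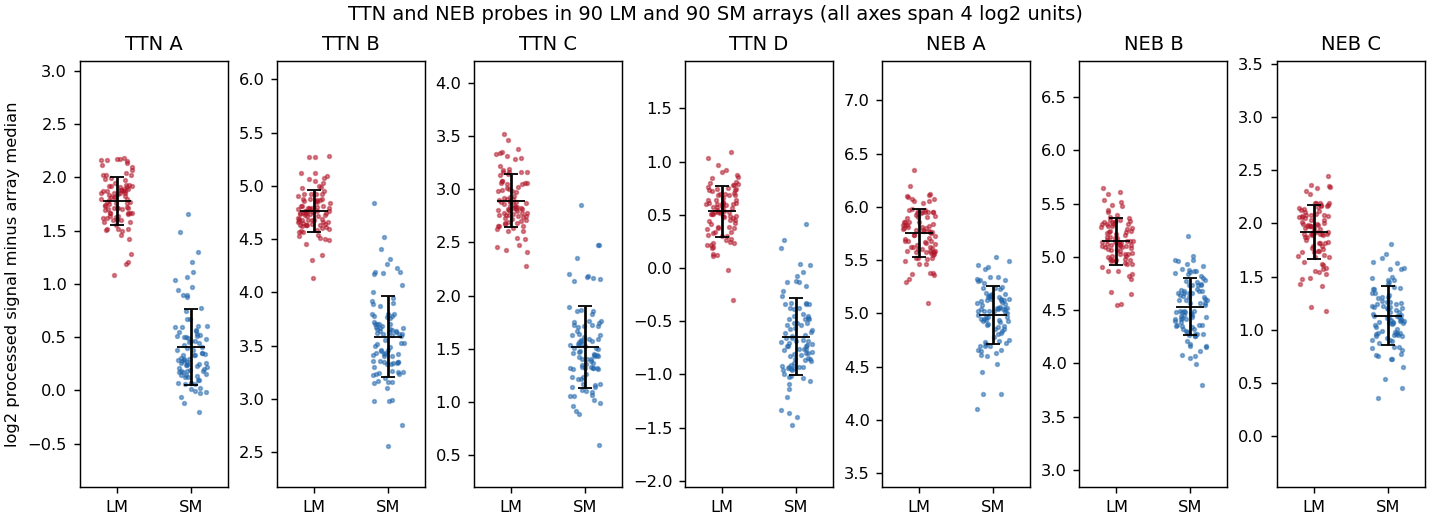
Values of the 7 probes, one panel a probe, in 90 LM arrays (red) and 90 SM arrays (blue). The y axis is log2 processed signal minus the median of the array, every panel spans the same number of log2 units, points are arrays, and bars are the mean and SD. The LM cloud lies higher in each panel, with SM arrays of the TTN probes spread upwards into it.

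As a description, the mean difference between LM and SM was 1.37 (log2, SE 0.044) for TTN A, 1.18 (SE 0.045) for TTN B, 1.38 (SE 0.048) for TTN C and 1.18 (SE 0.046) for TTN D. These are ratios of 2.59, 2.27, 2.60 and 2.26. For nebulin the difference was 0.77 (SE 0.037) for NEB A, 0.61 (SE 0.036) for NEB B and 0.78 (SE 0.040) for NEB C, ratios of 1.70, 1.53 and 1.72. All 7 probes passed an adjusted p of 0.05 in limma, with adjusted values from 2.30e-73 (TTN A) to 3.27e-38 (NEB B). With 90 arrays a muscle this call was common. Of the probes kept, 83.5% passed, 35.7% with the higher mean in LM and 47.7% with the higher mean in SM. By size, from 3.86% (TTN C) to 4.86% (TTN D) of the probes kept had a larger LM minus SM difference than a TTN probe, and from 8.52% (NEB C) to 11.2% (NEB B) a larger one than a NEB probe. The median difference over all probes kept was -0.07.

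**Figure D2:**
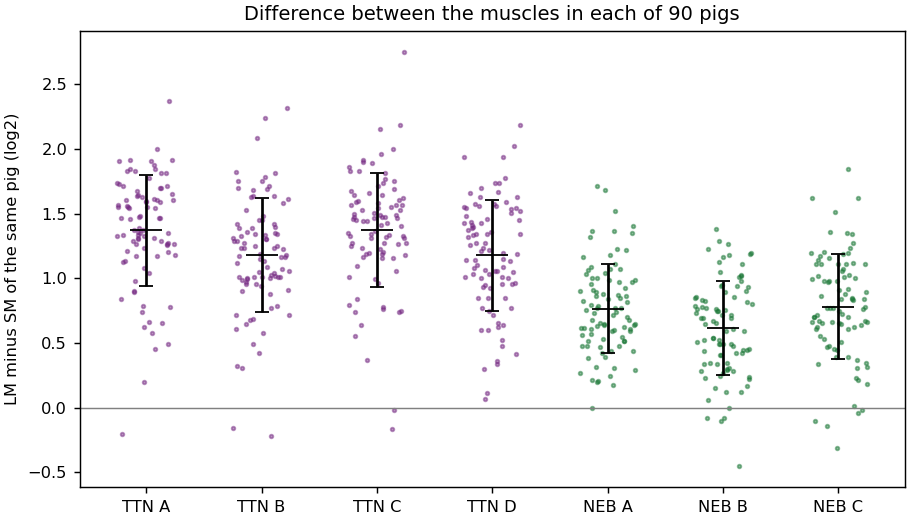
LM minus SM of the same pig (log2) for each probe, 1 point for each of 90 pigs, TTN in purple and NEB in green, with the mean and SD as bars. Few points lie below 0, and the TTN clouds sit above the NEB clouds.

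The difference was seen within single pigs. TTN A was higher in LM in 89 of 90 pigs, TTN B and TTN C in 88, and TTN D in 90. NEB A was higher in LM in 90 of 90 pigs, by only 0.00015 in the pig with the lowest difference, and NEB B and NEB C in 85. In 83 pigs all 7 probes were higher in LM. The other 7 pigs had at least 1 probe lower in LM, and none of them had all 3 NEB probes lower.

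The pig with replicate number 2 went against the other pigs for the largest number of probes. Its LM minus SM difference was -0.20 for TTN A, -0.21 for TTN B, -0.02 for TTN C, -0.45 for NEB B and -0.31 for NEB C. In the same pair of arrays TTN D was 0.69 in LM and -0.38 in SM, and NEB A was 5.97 in LM and 4.65 in SM, so both of these probes kept the usual direction. The pig with number 6 was lower in LM for TTN B, TTN C and NEB C, by at most 0.16. Its SM array gave the highest SM value of TTN A, TTN B, TTN C and TTN D.

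The TTN probes differed more between the muscles than the NEB probes did. With the probes of a gene averaged in each array, the LM minus SM difference was 1.28 ± 0.40 (SD, n = 90) for TTN and 0.72 ± 0.30 (SD, n = 90) for NEB. The difference between these, in which the centring of the array cancels, was 0.56 (log2, SE 0.033, 95% interval 0.49 to 0.62). It was above 0 in 85 of 90 pigs (two-sided sign-flip permutation test over pigs, adjusted p = 1.67e-05 over 10 tests, the smallest that 100000 permutations can give here). In 53 pigs the lowest of the 4 TTN differences exceeded the highest of the 3 NEB differences. With NEB A left out of the NEB mean, a choice made after the data were seen, the difference was 0.58 (SE 0.030) and above 0 in 86 pigs.

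Probes of the same gene did not all give the same muscle difference. TTN A and TTN C gave differences that were alike within a narrow interval, A minus C being -0.0043 (95% interval -0.039 to 0.031, adjusted p = 0.90 by the sign-flip permutation test). TTN B and TTN D also lay together, with B minus D at 0.0027 (95% interval -0.073 to 0.078, adjusted p = 0.94). As A lay with C and B with D, the gap between these pairs was bound to be about the same in every combination. The values that follow thus largely restate the same gap. A minus B was 0.19 (SE 0.025), A minus D 0.19 (SE 0.034), B minus C -0.20 (SE 0.022) and C minus D 0.20 (SE 0.035), each with an adjusted p of 1.67e-05. TTN A was larger than TTN B in 74 of 90 pigs, and TTN B was larger than TTN C in 13. With normexp background correction the pairing was another one, A minus B being 0.02 (adjusted p = 0.45) and B minus D 0.31 (adjusted p = 2.5e-05).

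Among the nebulin probes, NEB B gave a smaller difference than the others. NEB A minus NEB B was 0.15 (SE 0.044, adjusted p = 0.00109), with NEB A larger in 54 of 90 pigs. NEB B minus NEB C was -0.17 (SE 0.025, adjusted p = 1.67e-05 by the same permutation test), with NEB B larger in 21 pigs. NEB A minus NEB C was -0.02 (95% interval -0.11 to 0.077, adjusted p = 0.90). The span from the lowest to the highest probe was 0.20 for TTN and 0.17 for NEB. The 50 genes with 3 or more probes in the study's lists had a median span of 0.28, with quartiles of 0.16 and 0.45.

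These gaps were also computed with base composition taken into account. The first 15 bases held at least 8 C in 215 C-rich probes and at most 2 C in 3954 C-poor probes. The mean of the former minus the mean of the latter, an index of each array, had a median of -0.37 in LM and 0.36 in SM. A line was fitted over pigs to each gap against the LM minus SM difference in index, and was read where that difference is 0. The medians of the muscles lie apart, so these values rest on the fitted line, and the index goes largely with the muscle. Read in this way, TTN B minus TTN D was -0.22 (sign-flip permutation test, adjusted p = 0.0059), opposite in sign to the value above. TTN A minus TTN B was then 0.34 and TTN B minus TTN C -0.31 (adjusted p = 3.33e-05 in each), both larger than above, and NEB B minus NEB C was -0.22 (adjusted p = 0.00015). TTN A minus TTN D was 0.12 (adjusted p = 0.14), TTN C minus TTN D 0.09 (adjusted p = 0.29) and NEB A minus NEB B 0.02 (adjusted p = 0.86), while NEB A minus NEB C was -0.21 (adjusted p = 0.10), all by the permutation test. TTN A and TTN C, with 5 and 2 C in the window, gave nearly the same muscle difference. The part of base composition in the gaps between probes was not tested. The difference between the TTN and NEB means kept its sign and its call under every alternative tried, which did not include quantile normalization. Keeping failed spots or outlying values and dropping the pairing of pigs could not change its size. The table by the authors could change it only through missing values. The size of this difference was 0.41 with normexp background correction, against 0.56 in the reported setting.

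Across pigs, the TTN probes varied together. The Pearson correlation between pairs of TTN probes ranged from 0.36 (TTN B with TTN D) to 0.85 (TTN A with TTN C) in LM and from 0.77 to 0.93 in SM, over 90 pigs, and all 12 values passed (permutation test, adjusted p of 0.00063 or less over 42 tests). TTN D had the lowest correlations in both muscles. The Spearman rho of the TTN pairs had a median of 0.63 in LM and 0.81 in SM. After each slide was centred on its mean the correlations ranged from 0.49 to 0.83 in LM and from 0.76 to 0.92 in SM. For scale, the median r over all pairs of other probes measured on every array was 0.024 in LM and 0.011 in SM, with a 95th percentile of 0.36 and 0.395. Probes of the same gene, over other genes with 2 or more named probes, had a median r of 0.85 in LM and 0.88 in SM. The median over the TTN pairs was 0.67 and 0.84.

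**Figure D3:**
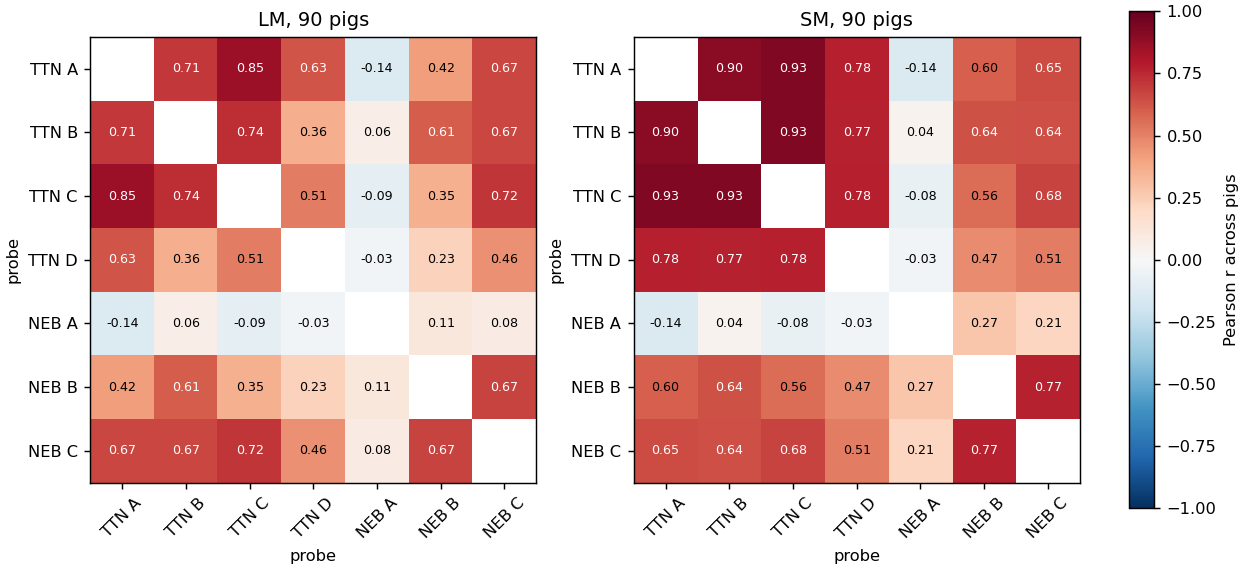
Pearson correlation across 90 pigs between the 7 probes, in LM (left) and SM (right), with probes on both axes and r written in each cell. The TTN block and the rows of NEB B and NEB C are red, while the row of NEB A is pale in both muscles.

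The nebulin probes did not form 1 group. That NEB A reads nebulin rests on the study's list alone and was not checked against a transcript here. NEB B and NEB C correlated at r = 0.67 in LM and 0.77 in SM (rho 0.64 and 0.72, permutation test, adjusted p = 1.62e-05 in each). NEB A correlated with NEB B at only 0.11 in LM (adjusted p = 0.35) and 0.27 in SM (adjusted p = 0.0128), and with NEB C at 0.08 in LM (adjusted p = 0.49) and 0.21 in SM (adjusted p = 0.0571), all by permutation. In a test added after these values were seen, which swapped standardised values of the probes within pigs, the r of NEB A with NEB B was lower than that of NEB C with NEB B by 0.56 in LM (permutation, adjusted p = 0.000811) and by 0.49 in SM (adjusted p = 8e-05). The r of NEB A with NEB C was lower than that of NEB B with NEB C by 0.59 in LM and by 0.56 in SM (adjusted p = 0.000811 and 4e-05).

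The separation of NEB A depended in part on the scaling. With quantile normalization NEB A correlated with NEB B at 0.61 in LM, above the r of NEB C with NEB B by 0.10, while its r with NEB C stayed at 0.05. In SM the corresponding values were 0.38 and 0.21. With slides centred, NEB A correlated with NEB B at -0.03 in LM and 0.43 in SM. Of the other genes with 3 or more probes measured on every array, 1 of 18 in LM and 1 of 17 in SM had a lower median r among its probes than NEB, whereas 9 and 11 had a lower one than TTN.

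Titin and nebulin varied together within each muscle. The mean of the TTN probes correlated with that of the NEB probes at r = 0.54 in LM (rho 0.57) and r = 0.51 in SM (rho 0.50), over 90 pigs each (permutation test, adjusted p = 1e-05, the smallest that the permutations can give, and 2e-05 for rho). Without the 2 pigs farthest from the median of TTN, r was 0.53 in LM and 0.50 in SM. Centred on slides it was 0.63 in LM and 0.52 in SM. Within scan days of 6 or more arrays, r ranged from -0.02 to 0.86 over 6 days of LM, 5 of them positive, and from -0.49 to 0.68 over 5 days of SM, 4 of them positive. Among LM arrays it was 0.67 in the 46 read with 1 version of the scanner software and 0.42 in the 44 read with the other.

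The relation passed for NEB B and NEB C and did not pass for NEB A. The mean of NEB B and NEB C correlated with the TTN mean at r = 0.66 in LM and 0.67 in SM (rho 0.65 and 0.62, permutation test, adjusted p = 3e-05 over 6 tests added after the data were seen). Without the 2 farthest pigs these values were 0.61 and 0.63. Within scan days they ranged from 0.45 to 0.90 in LM and from -0.14 to 0.82 in SM. NEB A correlated with the TTN mean at -0.06 in LM and -0.05 in SM (permutation test, adjusted p = 0.61 in each), and with the single TTN probes at between -0.14 and 0.06. Its r with the TTN mean ranged within scan days from -0.81 to 0.73 in LM and from -0.73 to 0.51 in SM. In LM its r with TTN B was 0.54 with quantile normalization and 0.37 with normexp background correction. The r of NEB A with the TTN mean was lower than that of NEB B by 0.52 in LM and 0.66 in SM (permutation, adjusted p = 0.00965 and 4e-05), and lower than that of NEB C by 0.79 and 0.71.

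**Figure D4:**
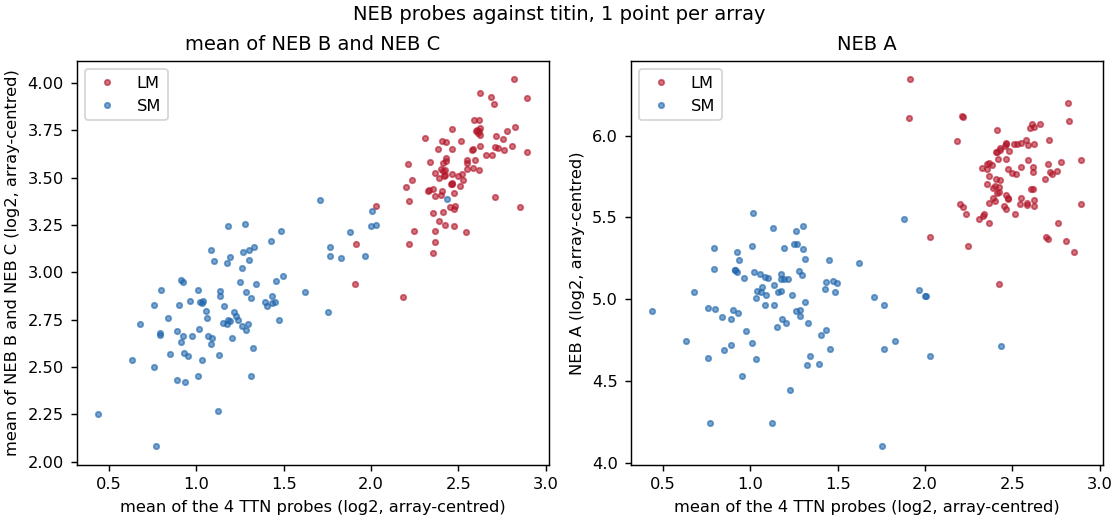
Mean of the 4 TTN probes (x axis) against the mean of NEB B and NEB C (left) and against NEB A (right), all in log2 processed signal minus the median of the array, 1 point per array, LM in red and SM in blue. Within each colour the left panel slopes upwards (r = 0.66 and 0.67) and the right panel does not (r = -0.06 and -0.05).

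No correlation between the muscles of the same pig passed the threshold. The correlation of LM with SM values of the same pig ranged from -0.18 (NEB C) to 0.08 (TTN C) over the 7 probes, and was -0.0046 for the TTN mean and -0.24 for the NEB mean (n = 90). The corresponding rho was 0.04 for the TTN mean and -0.25 for the NEB mean. None of the 9 passed after adjustment, the NEB mean having an unadjusted permutation p of 0.0235 and an adjusted p of 0.21. Without the 2 pigs farthest from the LM median, r was -0.06 for the TTN mean and -0.27 for the NEB mean.

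The TTN probes varied more over the SM arrays than over the LM arrays. With 1 array for each muscle of each pig, spread between pigs cannot be told apart from spread between arrays. Slides and scan days also differed between the muscles. The SD in LM and SM was 0.22 and 0.35 for TTN A, 0.20 and 0.38 for TTN B, 0.25 and 0.38 for TTN C, and 0.24 and 0.36 for TTN D. In the log2 ratio of the SDs, from -0.61 for TTN D to -0.94 for TTN B, all 4 differences passed (permutation test on the ratio of SDs, swapping muscles within pigs, adjusted p = 0.00021 for TTN B and 0.00315 for each of the others). For nebulin the SD was 0.23 and 0.27 for NEB A, 0.22 and 0.27 for NEB B, and 0.25 and 0.28 for NEB C, and none passed (adjusted p = 0.17, 0.099 and 0.40 by permutation). Whether the change of spread itself differed between the genes was not tested. Without pigs 2 and 6, an alternative added after the data were seen, the same 4 TTN probes passed (permutation, adjusted p from 0.00021 to 0.0164) and no NEB probe did. With normexp background correction the ratio of TTN D was -0.32 and did not pass (permutation, adjusted p = 0.12), and with quantile normalization that of TTN B was -0.41 (adjusted p = 0.0221). Of the probes kept, 54.5% had the lower SD in LM, and from 2.21% (TTN B) to 5.67% (TTN D) had a lower ratio than a TTN probe.

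Part of the spread in LM lay between slides. Among slides with 3 or more arrays, the 4 TTN probes and NEB A differed between slides in LM (F test of limma, adjusted p from 3.21e-05 for NEB A to 0.018 for TTN D), where 53.7% of all probes tested did. Of the variance, 53.8% lay between slides for NEB A and from 37.1% to 42.5% for the TTN probes, against 17.0% for NEB B and 27.7% for NEB C. With 18 slides over 85 arrays, some share lies between slides even where slides do not differ. NEB B and NEB C did not pass in LM (adjusted p = 0.70 and 0.15 by the same test). In SM, NEB C alone of the 7 passed (adjusted p = 0.035), where 15.0% of all probes tested did. When slides, or scan days, entered the fit as random blocks, all 7 probes kept the direction and the call of their muscle difference. Each slide and scan day held 1 muscle only, so these fits cannot separate a shift between slides or days from the muscle.

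The probes most like titin were chosen by the lower of their correlations with the TTN mean in LM and in SM, each over up to 90 pigs. Among those with a gene name, the first was SRRM2, a protein of the splicing machinery, at 0.61. It was followed by PKN2, a serine/threonine protein kinase, at 0.58, PDE4DIP, which anchors a phosphodiesterase, at 0.58, LDB3, a Z-disc protein that binds alpha-actinin, at 0.56, and GAPDH, an enzyme of glycolysis, at 0.53. The first 4 were higher in LM and GAPDH was higher in SM, at -0.41. Over the 10980 other probes this measure had a median of -0.08 and a 95th percentile of 0.23.

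For the NEB mean the named probes most alike included ZFP106, a zinc-finger protein that binds RNA, at 0.49, CACNA2D1, a subunit of voltage-gated calcium channels, at 0.44, UBR3, a ubiquitin ligase, at 0.44, and PKN2 at 0.43. PKN2 was thus named for both genes. The probes that followed NEB A were others. In a list made after the data were seen, FXR1, an RNA-binding protein, led for NEB A at 0.61, followed by DCAF6, which is part of a ubiquitin ligase complex, at 0.61, whereas PKN2 led for the mean of NEB B and NEB C at 0.65.

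The genes of a sarcomere list, partners of titin and nebulin among them, went both ways between the muscles. The list held 74 gene symbols, some of them an older and a newer symbol of the same gene. Of these symbols, 30 had a named probe, with 38 probes in all. Of the probes, 18 were higher in LM, 19 were higher in SM and 1 did not pass (CSRP3, a Z-disc protein, at 0.14, adjusted p = 0.20 in limma). With the pig as a block CSRP3 passed too (adjusted p = 0.0393 in limma). The background given above applies, 35.7% of all probes being higher in LM and 47.7% in SM, and the naming of probes from lists of called probes, of which that for SM was used only in part, fixes that nearly all passed and bears on the split. The median difference was 0.14 over the 9 probes of the Z-disc, 0.01 over the 10 of the thin filament, 0.41 over the 6 of the thick filament and -0.48 over the 6 of folding, splicing and turnover.

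Proteins that bind titin differed in direction. At the Z-disc, TCAP (telethonin), which caps the end of titin, was higher in SM, with a difference of -0.50 (log2, SE 0.032). Its values were used on 83 LM and 90 SM arrays, the other LM values having failed a spot criterion or been outlying. Whether their loss moved the difference was not tested. Of the ankyrin repeat proteins that bind the spring region of titin, ANKRD1 was higher in LM by 1.17 (SE 0.18) and ANKRD23 by 1.55 and 2.33 in its 2 probes, while ANKRD2 was higher in SM, at -1.37 and -1.40. FHL2, a LIM domain protein that binds titin, was also higher in SM, at -1.09 (SE 0.072).

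RBM20, which controls the splicing of titin, was higher in LM by 0.44 (SE 0.057). LMOD2 and LMOD3, the leiomodins that act at the pointed end of the thin filament, were higher in LM by 0.36 (SE 0.071) and 0.33 (SE 0.046). XIRP2, an actin-binding repeat protein, was higher in LM by 0.96 (SE 0.057). ACTA1, the actin of the skeletal muscle thin filament, was higher in SM in both of its probes. The differences were -0.83 (87 LM and 90 SM arrays used) and -0.70 (88 LM and 90 SM arrays used). ACTA1 and the other genes given so far in this paragraph each passed an adjusted p of 0.05 in limma. With the C-rich index added to the fit, all 38 probes of the list kept their direction and 36 passed. CSRP3 and 1 probe of PDLIM3, of the Z-disc group, did not (PDLIM3 at 0.14, adjusted p = 0.14 in limma). Each partner given a value in this paragraph and the preceding one kept its direction and its call, but TCAP was then -0.24 and RBM20 0.28.

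**Figure D5:**
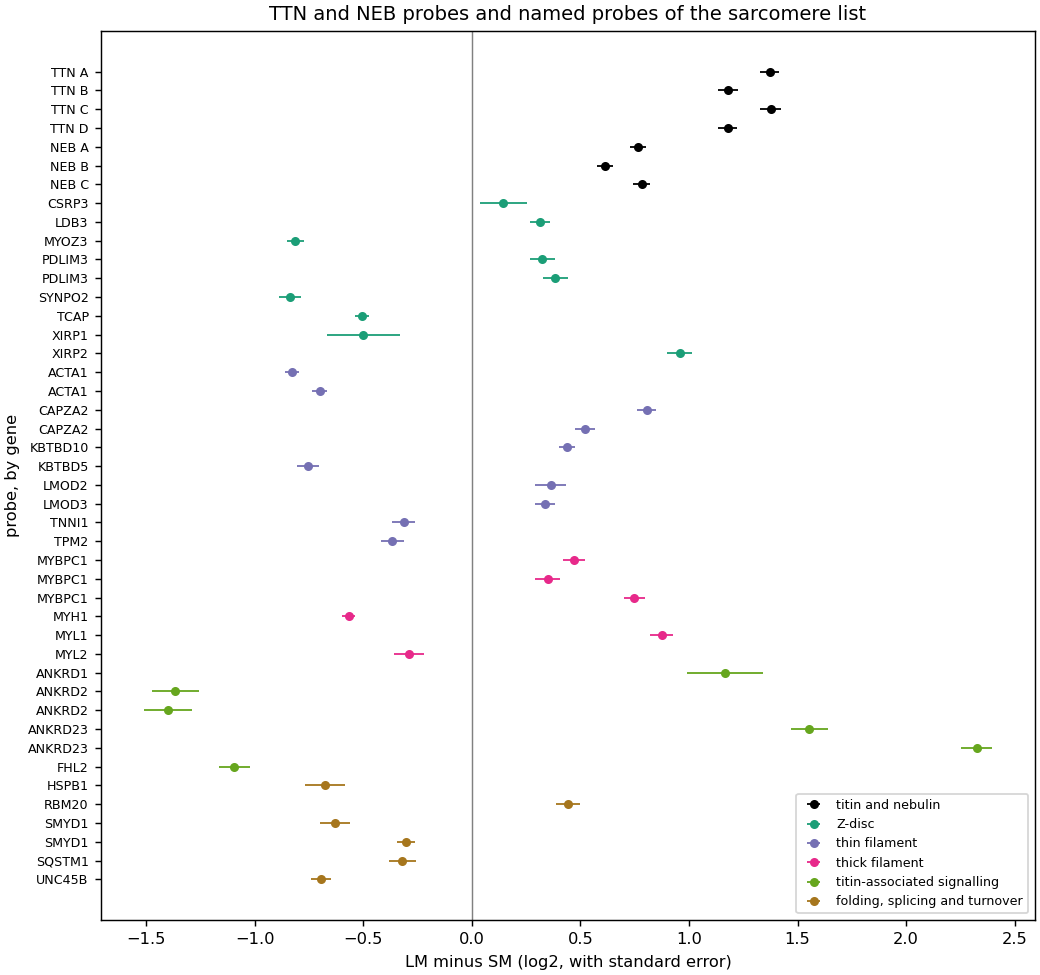
LM minus SM difference (log2) with its standard error for the 7 TTN and NEB probes (black, top) and named probes of the sarcomere list, coloured by group. Values right of 0 are higher in LM. TTN and NEB lie to the right, whereas the other groups lie on both sides, from -1.40 (ANKRD2) to 2.33 (ANKRD23).

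The labelled tissue was checked with markers. ACTA1, MYH1 and MYL1, proteins of the contractile filaments, were well above background on all 180 arrays, and RYR1, the calcium release channel, on 90 LM and 72 SM arrays. Markers of other cell types moved with the muscle too. Both named adipocyte markers of 4 (ADIPOQ and PLIN1) were higher in SM, with a summed processed signal from 107 to 5011 in LM (median 405) and from 139 to 4277 in SM (median 774). Both vessel smooth muscle markers of 2 were higher in SM, with a sum from 307803 to 733705 in LM (median 370266) and from 226969 to 622231 in SM (median 441673), as were the 2 named endothelial markers of 3, with sums from 1179 to 3179 (median 1901) and from 1069 to 4345 (median 2167). These sums are of signals before centring, whereas the directions are from centred values. The vessel sum was mostly ACTA2, whose brighter probe had a centred mean of 9.27 in LM and 9.74 in SM, against -2.63 and -0.87 for MYH11. The brighter probe of ACTA1 had 9.46 and 10.16. Whether the ACTA2 probes also read ACTA1 was not tested. Of 4 macrophage markers 2 were named, CD14 being higher in SM and CD68 in LM, with sums from 130 to 367 in LM (median 213) and from 157 to 711 in SM (median 262), and none of 3 fibroblast markers was named. The part of cell composition in the TTN and NEB differences was not tested.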

How the data were processed

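Total RNA of each muscle was labelled with Cy3 and hybridised to a single-colour Agilent array. Per the file headers, Feature Extraction 9.5.3.1 read 136 arrays and 9.5.1.1 read 44 of LM. The deposited scanner output gives a processed signal, a background-subtracted intensity on a linear scale, not normalized between arrays. A second table by the authors, of 6903 probes in natural log units, equals the natural log of that intensity minus 1 constant per array, and served as an alternative.

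Intensities were put on the log2 scale. Saturated or non-uniform spots and those not well above background counted as missing. Probes missing in over 50% of the arrays of a muscle were dropped, each array was centred on the median of the remaining probes, and values over 3 SD from their probe mean were removed. Muscles and slides were compared in all probes with limma 3.58.1 (lmFit, eBayes; statmod 1.5.0) under R 4.3.3, with Benjamini-Hochberg adjustment. The sex, weight and batch terms of the study's model are not in the labels and were left out. Other tests were two-sided permutation tests over pigs with 100000 resamples (Python 3.11.15, NumPy 2.4.6, SciPy 1.17.1, pandas 2.3.3, matplotlib 3.10.9), adjusted within each family. The tests were checked on simulated data with known differences. In the simulated muscle fit, 71 of 100 probes changed by 0.2 log2 were called. Its noise was independent between arrays, so that check does not cover shifts between slides or scan days. Replicate numbers pair the arrays, since the pig given by the labels is the same in both muscles for all 90 numbers. The precision is limited by the number of arrays.

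The rule for named genes was the 7 members, the 5 named probes most like each gene mean, and the fixed partners in the sarcomere list. Some genes that this rule names are not reported here. The members and lists were chosen with earlier results of these data known.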

Additional observations from a re-analysis of the deposited data

How the results depend on the processing

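Of 304 tested values recomputed under an alternative, 294 stayed on their side of the threshold. None of the 193 whose reported value passed changed sign, and 14 whose reported value did not pass did, of which 1 then passed. The values that kept both include the muscle difference of each of the 7 probes and the TTN minus NEB difference under every alternative run, and both TTN and NEB correlations. Keeping failed spots or outlying values could not change a value of the members, since no spot of the 7 probes failed or was outlying. Part of the 294 was thus fixed beforehand, as was the direction of the muscle differences, for which the members had been listed. With the pig as a replicate block, 9159 probes differed between the muscles, against 9169 without it, and the block changed no call of a member. In the values that the authors deposited, 6027 of 6903 probes differed. With normexp background correction, TTN A minus TTN B was 0.0226, TTN A minus TTN C -0.0714 (permutation, adjusted p = 0.00124) and TTN B minus TTN D 0.31. For pigs read with 1 software version, NEB A minus NEB B was 0.12 (permutation, adjusted p = 0.13, n = 46). Read from the fitted line where the muscles do not differ in the index of C-rich probes, TTN A minus TTN D was 0.12 and TTN B minus TTN D -0.22. In the same reading TTN C minus TTN D was 0.0901 and NEB A minus NEB B 0.0156. The number of TTN and NEB probes that differed between slides in SM was 2 with quantile normalization and 3 with normexp correction, against 1. The cause was not tested for any of these, nor for the spread of TTN D, which no longer passed with normexp (-0.32 on the log2 ratio of SDs), or of NEB A, which passed with slides centred (-0.57). Centring on the median of usable spots only, the NEB mean without NEB A and leaving out pigs 2 and 6 were chosen after the data were seen. The first of these moved the median of all probes from -0.07 to 0.01 and the share of called probes higher in LM from 42.8% to 51.0%. All 7 probes were well above background on every array, but TTN D moved with the background correction, from 1.18 to 0.90 in LM minus SM with normexp.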
